A study of Mus musculus with 30 samples.

Results

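Transcripts of 79 nuclear genes for subunits of the mitochondrial respiratory chain and ATP synthase were followed across 30 RNA-seq libraries of cultured microglia of the mouse, which are the macrophages that live in the brain. The genes were chosen by symbol alone out of the 13788 in the deposited table: Nduf followed by a, b, c, s or v and a digit, the Sdh genes a to d, and all symbols that begin with Uqcr, Cox4 to Cox8 or Atp5. They comprised 36 genes of complex I, 4 of complex II, 8 of complex III, 14 of complex IV and 17 of complex V. All 79 passed the filter on low values (10 or more in at least 3 libraries). The primary cultures came from mouse brain and were harvested by shaking off. There were 10 groups of 3 libraries: wild type (WT) and the genotype labelled PD-1 KO (KO-labelled below), each at 0 h, at 2 h and 8 h without amyloid-beta, and at 2 h and 8 h in conditioned medium containing amyloid-beta. PD-1, the product of Pdcd1, is a receptor that restrains immune cells, and the study asked how its loss affects microglia that face amyloid. The labels give no strain or age, do not describe the medium of the cultures without amyloid-beta, and do not say whether the 3 libraries of a group came from separate animals, so p-values measure only the spread between these libraries.

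Oxidative phosphorylation is the pathway by which mitochondria make most of the ATP of a respiring cell. Complex I (NADH dehydrogenase) and complex II (succinate dehydrogenase, also an enzyme of the TCA cycle) pass electrons to ubiquinone, complex III passes them to cytochrome c, and complex IV hands them to oxygen. Complexes I, III and IV pump protons, and complex V (ATP synthase) uses the gradient to form ATP. Complex II is encoded wholly in the nucleus, whereas the other complexes also hold subunits made from mitochondrial DNA, which were not analysed here. Microglia are known to shift the balance between this pathway and glycolysis when they are activated. Of the 79 genes, Ndufa4 was named for complex I and is now counted with complex IV, Cox7a2l joins complexes III and IV, and Atp5s and Atp5sl are not core parts of ATP synthase. Placing Ndufa4 in complex IV and leaving the other 3 out moved none of the 30 medians per complex and genotype comparison beyond the typical standard error of a gene.

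Promoters of 67 of the 79 genes were matched in RefSeq (GRCm38.p6), each from 250 bases before to 50 bases after the start. They were searched on both strands for motifs of factors known to act on respiratory genes. A gene was counted when any of its promoters held the letters. The NRF1 letters GCGCANGCG were found in 20 of the 67 (29.9%), against 14.9% of 10418 matched genes that were tested and 7.03% of all 27025 genes with a promoter. The YY1 letters AAGATGGCG were found in 8 (11.9%, against 3.38% and 1.64%) and the GABPA letters CCGGAAGT in 5 (7.46%, against 8.66% and 4.31%). The ESRRA letters TCAAGGTCA were found in 2 (2.99%, against 0.326% and 0.466%). None of these motifs overlaps another in the promoters printed. Shown are the promoters of the 4 genes on which the genotype results turn, with matches in capitals: Sdhd (chr9:50603800-50604099, minus strand, an NRF1 match and, on the opposite strand, an ESRRA match), Ndufa6 (chr15:82354242-82354541, minus strand, an NRF1 match), Ndufa1 (chrX:37191189-37191488, minus strand) and Cox6b2 (chr7:4753045-4753344, minus strand). These letters are not in the windows of Ndufa1 and Cox6b2.
Sdhd: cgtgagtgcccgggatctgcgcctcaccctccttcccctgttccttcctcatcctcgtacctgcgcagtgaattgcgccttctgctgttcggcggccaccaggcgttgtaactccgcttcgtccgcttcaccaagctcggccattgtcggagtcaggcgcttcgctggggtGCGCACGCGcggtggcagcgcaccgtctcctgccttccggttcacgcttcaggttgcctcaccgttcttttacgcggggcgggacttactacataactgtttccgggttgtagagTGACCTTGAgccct
Ndufa6: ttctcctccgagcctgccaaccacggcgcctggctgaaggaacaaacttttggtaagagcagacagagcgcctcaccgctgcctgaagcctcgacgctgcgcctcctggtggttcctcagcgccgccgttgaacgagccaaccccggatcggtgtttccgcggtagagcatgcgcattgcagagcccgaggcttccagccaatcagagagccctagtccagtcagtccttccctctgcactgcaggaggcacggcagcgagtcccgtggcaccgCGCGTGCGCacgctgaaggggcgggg
Ndufa1: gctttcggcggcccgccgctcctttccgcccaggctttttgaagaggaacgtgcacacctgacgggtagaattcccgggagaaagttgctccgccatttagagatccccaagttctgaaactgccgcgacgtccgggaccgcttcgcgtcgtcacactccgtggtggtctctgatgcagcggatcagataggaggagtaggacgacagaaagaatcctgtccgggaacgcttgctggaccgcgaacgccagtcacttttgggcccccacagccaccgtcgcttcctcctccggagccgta
Cox6b2: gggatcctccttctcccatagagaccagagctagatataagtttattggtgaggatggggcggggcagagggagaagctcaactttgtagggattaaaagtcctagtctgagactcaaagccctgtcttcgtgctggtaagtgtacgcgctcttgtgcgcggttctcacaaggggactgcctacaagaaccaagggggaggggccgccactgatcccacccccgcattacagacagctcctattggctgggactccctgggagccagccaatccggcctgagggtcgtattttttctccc

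The genes were among the more abundant ones in these cultures. Levels were compared per kilobase of transcript, as the mean deposited value over 30 libraries divided by the median length of the protein-coding transcripts. The median level was 940 per kb for the 79 genes and 84.7 per kb for all genes with a length. By complex the median level was 645 per kb in complex I, 893 in complex II, 1133 in complex III, 1430 in complex IV and 1410 in complex V. The highest level was that of Cox4i1, a subunit of complex IV (4236 per kb), followed by Atp5b, the catalytic beta subunit of ATP synthase (4108 per kb). Within complex I the level ran from 86.8 per kb (Ndufb2) to 2331 per kb (Ndufa4). Within complex III it ran from 447 per kb for Uqcrfs1, the Rieske iron-sulphur protein, to 1704 per kb for Uqcrh. The 4 subunits of complex II lay close together, from 632 per kb for the membrane anchor Sdhc to 945 per kb for the other anchor, Sdhd. Together the 79 genes held 0.672% to 0.843% of all values in a library, as group means.

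Among subunits with alternative forms, the ubiquitous or liver form predominated. All shares in this paragraph were taken from values per kb of transcript. Cox6a2, the heart and muscle form, made up a median of 2.95% of Cox6a1 and Cox6a2 together in the 15 WT libraries and 3.27% in the 15 KO-labelled ones. Cox7a1, also a heart and muscle form, made up 1.57% of Cox7a1 and Cox7a2 in WT and 2.36% in KO-labelled libraries. Cox6b2, known from testis, made up 0.665% of Cox6b1 and Cox6b2 in WT (range 0.254% to 1.59%) and 2.45% in KO-labelled libraries (0.646% to 4.61%). The ranges of the last pair overlapped. A group of 3 genes encodes the same c-ring protein of ATP synthase. Over the 30 libraries Atp5g2 held a median of 51.0%, Atp5g3 43.7% and Atp5g1 5.47% of their summed value per kb. The lengths used were 586 bp for Atp5g2, 718.5 bp for Atp5g3 and 2675.5 bp for Atp5g1. Without division by length the order differed, with mean values of 1379 for Atp5g3, 1316 for Atp5g2 and 645 for Atp5g1. Cox4i2, Cox8b and Ndufa4l2 match the symbol rule but were not among the 13788 genes, so their levels are not known here. Cox6b2 rested on 2 to 149 reads per library and Cox7a1 on 1 to 69, whereas 70 of the 79 genes had at least 100 reads in every library.

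**Figure D1:**
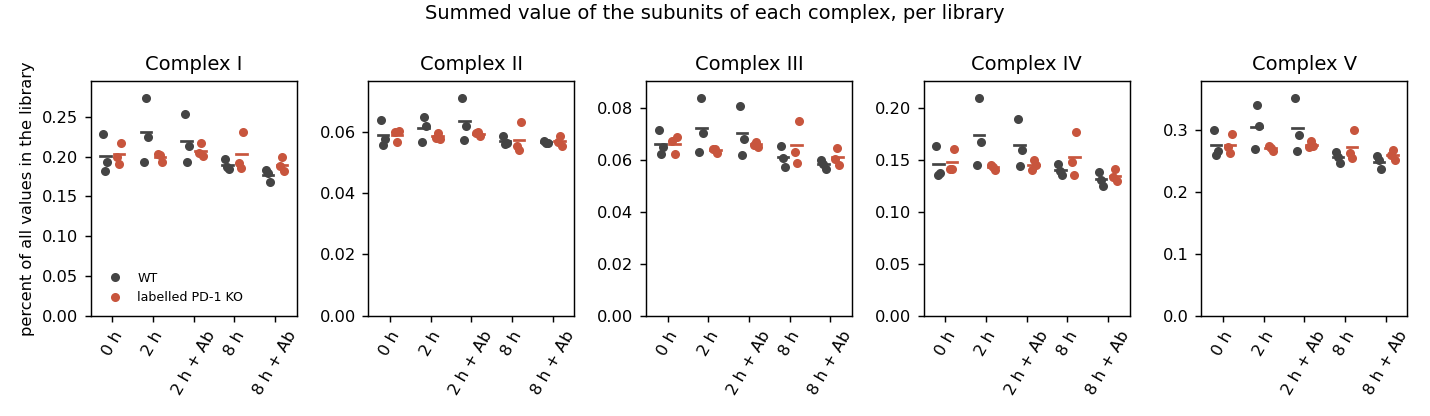
Percent of all deposited values in a library that fell on the subunits of each complex (vertical axis, starting at 0), for each condition (horizontal axis). Ab is amyloid-beta medium, points are the 3 libraries of a group, and short lines are group means. In each panel the highest point is a WT library at 2 h or at 2 h with amyloid-beta, and the KO-labelled groups at 2 h are tightly clustered.

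Facts of the libraries that touch every genotype comparison are as follows. Depth ran from 4227019 to 48509985 reads per library (median 9603082). Pdcd1 lay at the floor of 1 in all 15 WT libraries and at 6.02 to 25.3 in each of the 15 KO-labelled ones (two-sided permutation test, p = 1e-05, the smallest that 100000 resamples can give), so it went against the label and directions are given for libraries as labelled. The summed value of 10 astrocyte markers was 13041 to 30351 in KO-labelled libraries and 1667 to 4786 in WT, and that of 7 ependymal and ciliated-cell markers 1410 to 6498 and 87.1 to 473. The sum of 14 microglia and macrophage markers was 77570 to 138662 and 107312 to 187658, and none of the 14 was at the floor in a whole group. Sums of oligodendrocyte-lineage markers (6541 to 10829 and 2494 to 5688) and neuronal markers (1087 to 1811 and 543 to 951) did not overlap between the genotypes either, but the single genes were divided: over the 5 conditions KO-labelled libraries had 7 of 11 genes of the oligodendrocyte list higher and 3 lower, and of the neuronal list 4 of 8 higher (Nefl, Stmn2, Map2 and Tubb3) and 4 lower (Snap25, Gad1, Rbfox3 and Syt1). The sums of fibroblast and vascular markers overlapped (888 to 1791 and 242 to 1424). Of 13 neutrophil, lymphocyte and red cell markers 1 was in the table. The part of other cell types in the results was not tested, and in bulk cultures fewer cells of a type and less RNA per cell cannot be told apart.

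A pair of WT libraries stood apart in these genes. In replicate 2 of WT at 2 h the median gene of the 79 lay 0.56 (log2) above its own mean over the 30 libraries, with 77 genes above it, and in replicate 1 of WT at 2 h with amyloid-beta 0.53 above it, with 75 genes above. The other 28 libraries had medians between -0.25 and 0.28. The number of genes above their mean was not particular to the pair. It was 79 in replicate 3 of WT at 2 h, and 73 in replicate 1 of WT at 0 h and replicate 3 of the KO-labelled group at 8 h. The same pair differed by transcript length in other genes: among 219 genes under 750 bp with a mean value of 200 or more, the medians were 0.57 and 0.50, and among 3454 genes over 3000 bp they were -0.19 and -0.15. Other libraries had a smaller difference of this kind. The 2 medians were 0.25 and -0.04 in replicate 3 of WT at 2 h. In replicate 3 of the KO-labelled group at 8 h they were 0.148 and -0.155. The 79 genes are short, with a median transcript of 742 bp against 2722 bp for all genes. What set these libraries apart was not tested. Replicate 2 of WT at 2 h was also the most deeply sequenced library, with 48509985 reads.

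**Figure D2:**
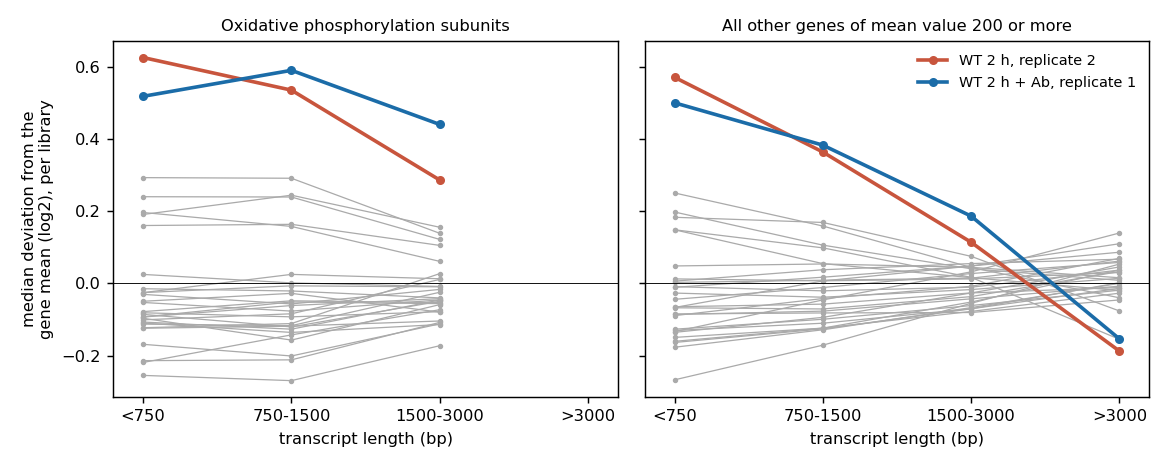
Median log2 deviation of genes from their own mean over the 30 libraries (vertical axis) by transcript length (horizontal axis), 1 line per library. The left panel shows the 79 subunit genes, none over 3000 bp, and the right panel all other genes with a mean value of 200 or more. The coloured pair of WT libraries lies highest among genes under 750 bp in both panels, and replicate 2 of WT at 2 h lies lowest among genes over 3000 bp (-0.19).

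At 2 h without amyloid-beta, 38 of the 79 subunit genes were lower in KO-labelled libraries than in WT, 0 were higher and 41 did not pass (limma with Benjamini-Hochberg adjustment over 13722 genes, adjusted p under 0.05). Of all genes tested, 13.4% were called lower, but short and abundant genes were called more often: of the 42 subunit genes under 750 bp, 54.8% were lower, and of the 219 other genes of that length with a mean value of 200 or more, 54.3%. Of the 79 fold changes, 77 were negative. The calls comprised 15 of 36 genes of complex I, 1 of 4 of complex II, 5 of 8 of complex III, 8 of 14 of complex IV and 9 of 17 of complex V. The median log2 fold change was -0.35 over the 79 genes and 0.01 over all genes. By complex it was -0.38 in I, -0.26 in II, -0.37 in III, -0.37 in IV and -0.33 in V, with complex II nearest to 0. The summed microglia and macrophage markers were also lower in these KO-labelled libraries, at 92240 to 115306 against 146542 to 178262 in WT, and their part in the result was not tested.

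Ndufa6, an accessory subunit of complex I, had 632, 909 and 710 in WT and 486, 488 and 473 in KO-labelled libraries. The groups did not overlap. Its log2 fold change was -0.62 ± 0.12 (SE, adjusted p = 0.0002672, n = 3 and 3, limma), and it passed without each of the 6 libraries in turn, with an adjusted p of at most 0.005626. Ndufa1, an X-linked accessory subunit needed to assemble complex I, had 407, 639 and 549 in WT and 353, 347 and 323 in KO-labelled libraries. These groups did not overlap either, and the log2 fold change was -0.62 ± 0.14 (limma, adjusted p = 0.0009059). With the trend on length removed, Ndufa1 was at -0.23 and its call ended, as it did at 2 h with amyloid-beta, whereas Ndufa6 kept its call here but not with amyloid-beta. A pair of short subunits of ATP synthase came next by size: Atp5e, the epsilon subunit, at -0.61 ± 0.20, and Atp5j2, subunit f, at -0.59 ± 0.18. Both lost the call without replicate 2 of WT, where their fold changes were -0.295 and -0.278, and also without replicate 2 of the KO-labelled group. Atp5e lost it without replicate 3 of that group as well, and its groups overlapped. Cox4i1 had 3086, 5272 and 3939 in WT and 2917, 2647 and 2599 in KO-labelled libraries, without overlap, and a log2 fold change of -0.56 ± 0.15 (limma, adjusted p = 0.004847).

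Core subunits were divided at 2 h. Of complex I, Ndufs3, Ndufs7 and Ndufv2, which lie in the arm that carries electrons to ubiquinone, were lower by -0.41, -0.51 and -0.35 (log2). Ndufs1, the large iron-sulphur subunit of the same arm, had 725, 748 and 847 in WT and 756, 775 and 765 in KO-labelled libraries. Its values overlapped and its log2 fold change was -0.01 ± 0.08. Of complex III, Uqcrc1 and Uqcrfs1 were lower by -0.36 each. Of the catalytic head of ATP synthase, the alpha subunit gene Atp5a1 was lower by -0.30 and the gamma subunit gene Atp5c1 by -0.40.

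**Figure D3:**
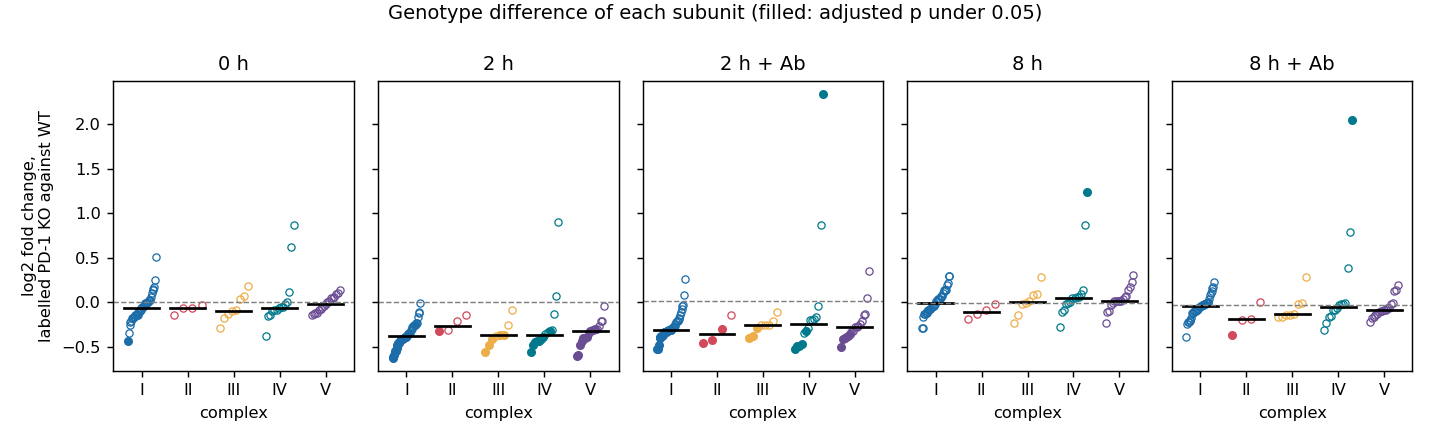
Log2 fold change of KO-labelled libraries against WT (vertical axis) for each of the 79 genes, by complex (horizontal axis) and condition (panels; Ab is amyloid-beta medium). Filled points have an adjusted p under 0.05, black lines are medians per complex and dashed lines the median of all genes tested. Most points lie below 0 in both 2 h panels, and Cox6b2 is the point above 1 in complex IV.

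At 2 h with amyloid-beta, 27 genes were lower in KO-labelled libraries and 1 was higher, against 16.7% and 22.2% of all genes tested. Of the subunit genes under 750 bp 26.2% were lower, beside 45.7% of other genes of that length with a mean value of 200 or more. The summed microglia and macrophage markers were 81632 to 97470 in these KO-labelled libraries and 152761 to 187658 in WT, and their part in the result was not tested. The lower genes comprised 11 of complex I, 3 of 4 of complex II, 3 of complex III, 5 of complex IV and 5 of complex V. Medians per complex were -0.31, -0.36, -0.26, -0.24 and -0.28 in the order I to V, and -0.29 over the 79 genes. The 2 comparisons at 2 h share no library, and 19 genes were called lower in both, which is 50% of the 38 and 70.4% of the 27. The share of all genes lower in both was not computed. Each WT group held 1 of the libraries that stood apart, and both tests used the same estimate of the spread. Of other genes under 750 bp with a mean value of 200 or more, 54.3% were lower without amyloid-beta and 45.7% with it. The 19 genes include Ndufa1, Ndufa6, Sdhd, Uqcrc1, Uqcrfs1, Cox4i1, Cox8a, Atp5a1, Atp5c1 and Atp5g2, of which Cox8a was picked here after its values were seen.

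The largest decreases at 2 h with amyloid-beta were in Ndufb9 (-0.53 ± 0.14), Ndufa2 (-0.53 ± 0.18), Cox4i1 (-0.52 ± 0.15) and Atp5g2 (-0.50 ± 0.12), all log2 fold changes ± SE. Cox4i1 had 5009, 3161 and 3626 in WT and 2656, 2610 and 2820 in KO-labelled libraries, without overlap. The highest WT value came from the library that stood apart, and without it the call of Cox4i1 was lost at a log2 fold change of -0.33, as were those of Ndufb9 (-0.35) and Ndufa2, the latter also without replicate 3 of WT. Atp5g2 kept its call without each library in turn (adjusted p of at most 0.01763, limma). Atp5b, which had missed the threshold at 2 h without amyloid-beta, was lower here by -0.36 (adjusted p = 0.008464, limma), but whether the genotype difference of a gene changed with amyloid-beta was a separate test, given below.

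How many genes passed at 2 h depended on the pair of WT libraries, on transcript length and on the scaling. Without replicate 2 of WT alone, 2 genes were called at 2 h (21.9% of all genes in either direction), and without replicate 1 of WT with amyloid-beta alone, 6 were called in that medium (31.8% of all genes). Without both libraries, 9 of the 38 were still called without amyloid-beta, all lower (9.44% of all genes were), and 11 of the 28 with it (1 higher and 10 lower, against 19.5% and 13.7% of all genes). The medians of the 79 genes were then -0.22 and -0.14. At 2 h without amyloid-beta, other genes of mean value 200 or more were lower in 54.3% of those under 750 bp, 40.0% of those of 750 to 1500 bp, 22.6% of those of 1500 to 3000 bp and 10.2% of those over 3000 bp. The subunit genes were lower in 54.8%, 57.1% and 18.8% of the first 3 classes (23 of 42, 12 of 21 and 3 of 16). At 2 h with amyloid-beta they were lower in 26.2%, 47.6% and 37.5%, beside 45.7%, 38.3% and 29.2% of the other genes. The median fold changes of other genes at 2 h without amyloid-beta were -0.39, -0.27, -0.11 and 0.05, beside -0.41, -0.36 and -0.21 for the subunit genes in the first 3 classes. With the trend on length, fitted on other genes, removed from each library, 12 genes were called without amyloid-beta (1 higher, 11 lower) and 20 with it (1 higher, 19 lower). Of all genes, 18.1% were then higher and 14% lower without amyloid-beta, and 21.7% and 20.1% with it, so that the 13.9% of subunit genes that were lower lay at the background in the first comparison and the 24.1% near it in the second. The medians of the 79 were -0.14 and -0.11, and none of complex II passed at 2 h without amyloid-beta. With values scaled to the library total, 6 were called without amyloid-beta (all lower, as were 6.03% of all genes) and 8 with it (3 higher and 5 lower, against 32.9% and 7.59% of all genes). That scaling moved the median of all genes to 0.17 and 0.22, and the medians of the subunit genes relative to it were -0.36 and -0.30, as with the deposited scaling (-0.36 and -0.31). Quantile normalization moved the median of all genes to -0.10 and -0.11, and the medians of the 79 genes relative to it were -0.24 and -0.12.

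At the other times few subunit genes passed the threshold between the genotypes, which does not show that the rest were equal. At 0 h 1 gene was lower (6.88% of all genes tested) and none higher: Ndufa1 had 536, 424 and 484 in WT and 339, 331 and 401 in KO-labelled libraries, a log2 fold change of -0.43 ± 0.14 (limma, adjusted p = 0.02452). The groups did not overlap, but the call was lost without any of 4 of the 6 libraries. At 8 h without amyloid-beta 1 gene was higher (Cox6b2; 18% of all genes tested) and none lower. At 8 h with amyloid-beta 1 was higher (Cox6b2; 22%) and 1 lower (Sdhd; 11.7%). The medians of the 79 genes were -0.06, 0.01 and -0.07, and by complex they ran from -0.10 (III) to -0.02 (V) at 0 h, from -0.11 (II) to 0.05 (IV) at 8 h, and from -0.19 (II) to -0.04 (I) at 8 h with amyloid-beta. In the order 0 h, 8 h and 8 h with amyloid-beta, 54, 37 and 63 of the 79 fold changes were negative. Of all 13722 genes tested, 6873, 7057 and 7311 were. With values scaled to the library total the medians of the 79 were 0.01, 0.10 and 0.07. At 8 h with amyloid-beta that scaling called 7 genes, all higher, as were 26.8% of all genes. Under quantile normalization neither gene called at 8 h with amyloid-beta kept its call (Cox6b2 at 0.98 and Sdhd at -0.27), nor did Cox6b2 at 8 h without it (0.35).

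Over the 5 conditions together, 42 genes were lower and 2 higher in the 15 KO-labelled libraries than in the 15 of WT, against 29.1% lower and 30.3% higher among all genes tested. By length, 50% of the subunit genes under 750 bp were lower, 61.9% of those of 750 to 1500 bp and 50% of those of 1500 to 3000 bp, beside 60.7%, 57.8% and 47.1% of other genes with a mean value of 200 or more. The lower genes comprised 18 of 36 of complex I, 4 of 4 of complex II, 5 of 8 of complex III, 8 of 14 of complex IV and 7 of 17 of complex V. The median log2 fold change was -0.16 over the 79 genes and ran from -0.19 in complex II to -0.15 in complex IV. This average rested mostly on the 2 h conditions. The medians of the 79 genes were -0.35 at 2 h and -0.29 at 2 h with amyloid-beta. They were -0.06 at 0 h, 0.01 at 8 h and -0.07 at 8 h with amyloid-beta. Of the 79 genes, 0 separated the 15 libraries of one genotype from the 15 of the other. The share of all genes that did so was not computed, so this count has no background beside it. The largest decreases were those of Ndufa1 (-0.32 ± 0.06), Sdhd (-0.30 ± 0.05), the complex I subunit Ndufb7 (-0.29 ± 0.07) and Cox4i1 (-0.27 ± 0.07). All kept their calls without each of the 30 libraries in turn. Without both WT libraries that stood apart, 33 of the 44 kept their calls, these among them, and the share of all genes is not given here. At 8 h without amyloid-beta Ndufa1 had 407, 366 and 409 in WT and 436, 336 and 401 in KO-labelled libraries, with overlap. With the trend on length removed, 37 were called (7 higher, 30 lower), of which 32 were among the 44. The 30 are 38% of the subunit genes, beside 32.7% of all genes called lower and 30.2% higher. With values scaled to the library total, 11 were called (8 higher and 3 lower, against 42.7% and 12.6% of all genes), and the lower ones were Ndufa1, Sdhd and Ndufb7; that scaling moved the median of all genes to 0.12, and the 79 genes lay at -0.14 relative to it. Under quantile normalization the median of all genes was -0.11 and that of the 79 genes -0.02 relative to it.

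Complex II was the smallest set and the one in which all members were called over the 5 conditions. Sdhd (chr9:50596357-50603812, minus strand, GRCm38), a membrane anchor with the NRF1 and ESRRA letters in the promoter printed above, had a median of 1234 in WT (lowest 1054, highest 1780) and 1034 in KO-labelled libraries (lowest 910, highest 1233). At 8 h with amyloid-beta it had 1295, 1285 and 1207 in WT and 998, 1034 and 910 in KO-labelled libraries, without overlap, and a log2 fold change of -0.37 ± 0.11 (limma, adjusted p = 0.01352). At 2 h the groups did not overlap either, with 1120, 1459 and 1383 against 1038, 1006 and 1099 without amyloid-beta and 1780, 1234 and 1354 against 1041, 1072 and 1036 with it. At 0 h the groups overlapped, and at 8 h without amyloid-beta the highest library labelled PD-1 KO (1174.46) just passed the lowest WT library (1174.1). The call at 8 h with amyloid-beta was lost without replicate 3 of the KO-labelled group (adjusted p = 0.06831, limma), and with quantile or library-total scaling.

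The other subunits of complex II moved less. Over the 5 conditions the iron-sulphur subunit gene Sdhb was lower by -0.22 ± 0.06, the anchor gene Sdhc by -0.17 ± 0.05 and the flavoprotein gene Sdha by -0.07 ± 0.03 (log2 ± SE). Sdha had a median of 2485 in WT (lowest 2343, highest 2853) and 2400 in KO-labelled libraries (lowest 2239, highest 2503), so that its 2 genotypes largely overlapped. With the trend on length removed all 4 were still called lower, with a median of -0.15 in complex II against -0.06 in complex I, -0.07 in III, -0.04 in IV and -0.05 in V. Sdhd then lay at -0.23 ± 0.03, the largest decrease of the 79 genes. With values scaled to the library total the median of complex II was -0.06. The difference between complexes was not tested.

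**Figure D4:**
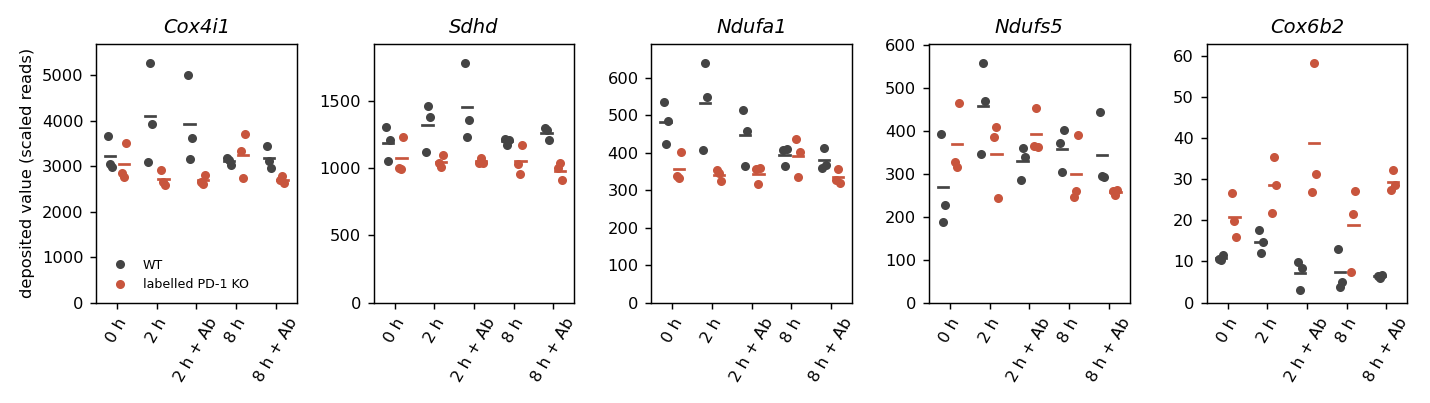
Deposited values (vertical axis, starting at 0) of 5 genes in every library, by condition (horizontal axis; Ab is amyloid-beta medium). Points are the 3 libraries of a group and short lines their means. Sdhd and Ndufa1 lie lower in KO-labelled libraries in most conditions, the highest Cox4i1 values (5272 and 5009) are single WT libraries at 2 h, and Cox6b2 lies higher in KO-labelled libraries.

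Cox6b2 and Cox7a1 were the 2 genes called higher in KO-labelled libraries over the 5 conditions. Cox6b2 (chr7:4751792-4753094, minus strand, GRCm38), the testis form of a complex IV subunit, had a median of 9.97 in WT (3.04 to 17.6) and 27.2 in KO-labelled libraries (7.53 to 58.2). At 2 h with amyloid-beta it had 9.97, 3.04 and 8.35 in WT and 26.8, 58.2 and 31.4 in KO-labelled libraries, without overlap, and a log2 fold change of 2.34 ± 0.43 (limma, adjusted p = 6.884e-05). At 8 h with amyloid-beta it had 6.37, 5.88 and 6.80 against 27.3, 32.3 and 28.5, a log2 fold change of 2.04 ± 0.43 (limma, adjusted p = 0.0003576) that was not called under quantile normalization. At 8 h without amyloid-beta the groups overlapped (13.1, 3.84 and 5.01 against 7.53, 21.6 and 27.2), with a log2 fold change of 1.24 ± 0.43 and a call that was lost without any of 4 of the 6 libraries. Over the 5 conditions the log2 fold change was 1.48 ± 0.19, in the same direction as in all 5 single conditions. The 7 ependymal and ciliated-cell markers were higher in the same libraries (sum of 1410 to 6498 against 87.1 to 473, with Foxj1, a regulator of motile cilia, at 707 to 2734 against 50.7 to 271), and their part in the Cox6b2 result was not tested.

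Cox7a1 had a median of 7.42 in WT (1.09 to 15.8) and 10.8 in KO-labelled libraries (7.11 to 30.1), and the genotypes overlapped. Over the 5 conditions its log2 fold change was 0.64 ± 0.24 (limma, adjusted p = 0.02383). The call was lost without replicate 2 of the KO-labelled group at 2 h with amyloid-beta, where limma gave an adjusted p of 0.05029, and under quantile normalization the fold change was -0.34.

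Cultures with and without amyloid-beta medium were compared within each genotype, to ask whether exposure changes these genes. With limma, 0 of the 79 passed the threshold in any of the 4 comparisons. In the order WT at 2 h, KO label at 2 h, WT at 8 h and KO label at 8 h, the shares of all genes called in either direction were 0%, 0%, 2.18% and 0.0583%, and the medians of the 79 genes were -0.03, 0.03, -0.05 and -0.13. At an unadjusted p under 0.05 the numbers of the 79 genes were 2, 0, 2 and 7 in the same order. Of all 13722 genes tested, 681, 615, 1905 and 1036 had such a p. At 8 h in KO-labelled libraries, 69 of 79 fold changes were negative, the medians per complex ran from -0.21 (IV) to -0.08 (V), and 0 of these passed. The difference of the amyloid-beta effect between genotypes passed for 0 of the 79 genes at 2 h (0.051% of all genes called) and 0 at 8 h (0% of all genes), with 1 and 1 at an unadjusted p under 0.05. Of all 13722 genes tested, 663 and 810 had such a p. Voom on the recovered reads called 0 of the 79 in each of these 6 comparisons.

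Time in culture without amyloid-beta was compared with 0 h. In WT at 2 h 5 genes were higher and 0 lower (2.59% of all genes called higher), and 76 of 79 fold changes were positive, with a median of 0.23. Of the 14 microglia and macrophage markers 7 were higher in the same comparison and 0 lower, with a median of 0.58 and the largest change in Cx3cr1 (1.76), and their part in the result was not tested. Ndufs5, an accessory subunit of complex I, had 392, 187 and 228 at 0 h and 347, 558 and 470 at 2 h, with overlap, and a log2 fold change of 0.81 ± 0.23 (limma, adjusted p = 0.04321). The others were Ndufa6 (0.46 ± 0.12), Cox7a2l (0.43 ± 0.13), Atp5g2 (0.39 ± 0.12) and Cox8a, the last outside the rule for named genes and named because it completes the count. The calls of Ndufs5, Cox7a2l and Atp5g2 were each lost without any of 4 of the 6 libraries, and that of Ndufa6 without any of 3. Without the pair of libraries that stood apart 0 passed, and other genes under 750 bp were also higher at 2 h (median 0.20), against -0.08 over 3000 bp.

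In KO-labelled libraries at 2 h, 0 of the 79 passed against 0 h (0.634% of all genes called) and the median was -0.08. At 8 h against 0 h, 0 passed in WT (6.05% of all genes) and 0 in KO-labelled libraries (3.29%), with medians of -0.08 and -0.03. The difference of the 2 h change between the genotypes had a median of -0.29 with 74 of 79 negative, and 0 passed (0.736% of all genes); at 8 h 0 passed (0.27%). In the order KO label at 2 h, WT at 8 h, KO label at 8 h and the differences between genotypes at 2 h and 8 h, the numbers at an unadjusted p under 0.05 were 1, 5, 0, 19 and 2. Of all 13722 genes tested, 1195, 2724, 2066, 1807 and 1427 had such a p. These comparisons share the libraries at 0 h.

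Other genes of mitochondrial energy metabolism were described from lists of related genes. The lists here and below were set against all genes and were not matched for length or level. In KO-labelled libraries over the 5 conditions, 60.7% of non-subunit genes under 750 bp with a mean value of 200 or more were lower. The share was 57.8% at 750 to 1500 bp, 47.1% at 1500 to 3000 bp and 32.05% over 3000 bp. The medians of these classes were -0.20, -0.16, -0.10 and -0.03 (log2). Whether the lists differ from such genes was not tested. Of 29 tested genes of mitochondrial protein import, 17 (58.6%) were lower and 0 higher in KO-labelled libraries over the 5 conditions, where 29.1% of all genes were lower and 30.3% higher, with all 29 fold changes negative and a median of -0.16, beside -0.02 for all genes. The largest were Tomm34 (-0.41), Timm10 (-0.37), a chaperone of the space between the membranes, Dnajc19 (-0.32), part of the import motor, and Hspe1 (-0.25), the mitochondrial co-chaperonin. Timm8b, a chaperone whose start lies beside that of Sdhd on the opposite strand, was lower by -0.22 and was picked after its value was seen. Of 51 tested assembly factors of the respiratory chain, 16 (31.4%, near the share of all genes) were lower and 5 higher, with a median of -0.09. Among them Coa4 (-0.44) and Cmc1 (-0.34), which act in the assembly of complex IV, and Tmem126b (-0.44), which acts in that of complex I, were lower, and Lyrm7 (0.47), which acts in that of complex III, was higher.

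Of 14 electron and metabolite carriers and porins, 6 (42.9%) were lower and 2 higher. Vdac2, a porin of the outer membrane, was lower by -0.35, Atpif1, the inhibitor of ATP synthase, by -0.25, and the phosphate carrier gene Slc25a3 by -0.19. Cytochrome c (Cycs) was lower by -0.18. Of 21 genes of the TCA cycle and pyruvate entry, 8 (38.1%) were lower and 3 higher. Mpc1, a subunit of the mitochondrial pyruvate carrier, was lower by -0.29, Dlat, the E2 subunit of pyruvate dehydrogenase, by -0.31, and Pcx, pyruvate carboxylase, was higher by 1.43.

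Of 23 regulators of mitochondrial biogenesis, 9 (39.1%) were lower and 1 higher over the 5 conditions. C1qbp was lower by -0.34 and Slirp, which stabilizes mitochondrial messenger RNAs, by -0.29. The regulator genes Nrf1 and Esrra, whose motif letters were searched above, were lower by -0.24 ± 0.06 and -0.22 ± 0.06 (log2 ± SE). For Yy1 and Gabpa, whose letters were also searched, the values are not given here. None of these regulator genes was called at 2 h with or without amyloid-beta. A link between the motifs and the levels of the factors was not tested. Ppargc1a, the coactivator PGC-1alpha, was higher by 1.17 ± 0.15. Astrocyte markers were higher in the same libraries, all 10 of 10 in the table, and their part in the Ppargc1a and Pcx results was not tested.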

How the data were processed

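Libraries were made from total RNA with the Illumina TruSeq kit and sequenced, per the labels' protocols. The build was mm10, and the tools listed were DESeq2, R 3.0.2, Partek 6.6 and HISAT 0.1.5, all per the submitters' processing notes, which assign them no step. The counting step and annotation are not given in the sources used here. The deposited signal values are gene counts that the authors scaled by a factor per library, with a floor at 1: as checked on the values up to 5000 reads, 100.0% above the floor were whole multiples of 1 step per library, within 0.05. Dividing by the step gave the depth per library, over the genes of the table, from 4227019 to 48509985 reads. Counting error is smallest in the deepest library, and floored values hide low counts. Genes whose highest value was under 12.2 are not in the table.

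Values were analysed as log2(value + 1), which understates changes of low genes. Genes with 10 or more in at least 3 libraries (13722) were fitted with 1 mean per group over all 30 libraries in limma 3.58.1 (R 4.3.3, intensity trend, 20 residual degrees of freedom). P-values of 18 comparisons were adjusted by Benjamini-Hochberg within each over all genes, with a threshold of 0.05. Pdcd1 was compared by a permutation test. The steps were tested on simulated counts that held no library standing apart and no trend on length, so that test says nothing on either. The members, the lists of other genes and the cell type markers were chosen with earlier results of these data known. Named genes were up to 4 higher and 4 lower members with the largest fold past the threshold per comparison, the highest and lowest member per kilobase in each complex, isoform pairs, core subunits, and up to 4 genes per other list. The text gives part of these. Transcript lengths came from GENCODE (GRCm38) and covered 99.4% of the genes. Alternatives were quantile and TMM scaling, pseudocounts 0 and 10, no filter or a filter at 50, a fit of only the groups compared, no trend, array weights, and leaving out each library. Voom on recovered reads, omission of a pair of libraries, adjustment for transcript length and scaling to the library total were chosen after seeing the data. Figures were drawn with matplotlib 3.10.9.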

Additional observations from a re-analysis of the deposited data

How the results depend on the processing

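Counts of the 79 genes called moved with several choices (causes were not tested except where fewer libraries or genes entered). The counts in this section stand without the share of all genes called, so they do not set the 79 genes against other genes. Genotype at 0 h (1 as reported) gave 2 with quantile normalization, 3 with array weights and 5 length-adjusted. At 2 h (38) it gave 24 with only the groups compared, 70 with array weights, 12 length-adjusted, 6 scaled to the library total and 9 without the pair of WT libraries. At 2 h with amyloid-beta (28) it gave 16 (quantile), 11 (only the groups compared), 54 (array weights), 8 (library total) and 11 (without the pair). At 8 h (1) it gave 2 (quantile), 0 (filter at 50, which removes Cox6b2), 0 (only the groups compared), 6 (array weights), 7 (length-adjusted) and 2 (library total). At 8 h with amyloid-beta (2) it gave 1 (quantile, with neither of the 2 among it), 1 (filter at 50), 12 (only the groups compared), 15 (array weights), 6 (length-adjusted) and 7 (library total). Over the 5 conditions (44) it gave 11 with the library total, and Cox7a1 reversed to -0.3386 under quantile normalization. The 2 h change in WT (5) gave 3 (quantile), 2 (TMM), 0 (only the groups compared), 1 (no trend), 34 (array weights), 1 (voom), 2 (length-adjusted) and 0 (without the pair). Where 0 were reported, array weights gave 2 and 3 for amyloid-beta at 8 h in WT and KO-labelled libraries, 1 and 1 for its difference between genotypes at 2 h and 8 h, 4 for WT at 8 h against 0 h and 16 for the genotype difference of the 2 h change. Length adjustment gave 1 for amyloid-beta in WT at 8 h and 4 for WT at 8 h against 0 h.

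Leaving out 1 library at a time, the genotype counts ran from 0 to 1 at 0 h, 2 (without WT replicate 2) to 66 (without WT replicate 1) at 2 h, 6 (without WT replicate 1) to 49 (without WT replicate 2) at 2 h with amyloid-beta, 0 to 1 at 8 h, 1 to 2 at 8 h with amyloid-beta and 36 to 61 over the 5 conditions. They ran from 0 to 17 for the 2 h change in WT, 0 to 1 for the 8 h change in WT and 0 to 2 for the genotype difference of the 2 h change, and stayed at 0 in the other 9 comparisons. The planned edgeR test was not run, because floored values are not counts. No paired analysis was possible because the labels give no replicate numbers shared between groups.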
